A study of Mus musculus with 6 samples.

Results

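The 10 genes described here make and load MHC class I molecules. They are the class I heavy chains H2-K1 and H2-D1, their light chain B2m, the peptide transporter genes Tap1 and Tap2, the loading chaperone Tapbp, the 3 immunoproteasome subunits Psmb8, Psmb9 and Psmb10, and the transactivator Nlrc5. They were chosen by symbol from the 46603 genes of the count table, and all 10 were matched. Reads were counted per gene in CD11B+ cells drawn with magnetic beads from kidneys of 10- to 12-week-old male mice, on day 3 after both renal pedicles had been clamped for 28 minutes (bilateral IRI-AKI). PTEC DN RAR mice (3 mice) carried PEPCK-Cre and Rosa26-LSL-RARaT403X, a Cre-activated truncated RARa that inhibits retinoic acid receptors in a dominant negative manner. Cre- control mice (3 mice) carried the same Rosa26 allele without Cre and had the same injury, so no uninjured group enters the comparison. PEPCK-Cre recombines in proximal tubule epithelial cells (PTECs), and the CD11B+ cells sequenced are not the cells it is meant to act in. CD11B is an integrin chain of monocytes, macrophages, neutrophils and NK cells. The PEPCK-Cre line was on a mixed background of 129svJ and C57BL/6 and the R26R-DN RAR line on C57BL/6. Each library came from 1 mouse, and the p-values measure the spread between these mice.

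Class I molecules show peptides of a cell's own proteins to CD8+ T cells and engage receptors of NK cells, and nearly all nucleated cells carry them. Peptides are cut by the proteasome, carried into the endoplasmic reticulum by the TAP1-TAP2 transporter, and fitted onto heavy chain and beta-2-microglobulin in a complex held together by tapasin. Interferon gamma raises most of these genes, swaps the immunosubunits in for the catalytic subunits of the standard proteasome, and acts in part through NLRC5, which is recruited to class I promoters by the factors RFX, CREB/ATF and NF-Y. Class II genes share those factors but use the transactivator CIITA, and their molecules show peptides from engulfed material to CD4+ T cells, mainly on dendritic cells, B cells and macrophages.

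On GRCm38, 7 of the 10 genes lie in the MHC region of chromosome 17. H2-K1 (ENSMUSG00000061232, chr17:33996017-34000347, minus strand) and Tapbp (ENSMUSG00000024308, chr17:33915899-33929292, plus strand) lie at one side of it, and H2-D1 (ENSMUSG00000073411, chr17:35262730-35267499, plus strand) lies 1046.4 kb beyond Tap2. Between them, Psmb9 (ENSMUSG00000096727, chr17:34181987-34187764, minus strand), Tap1 (ENSMUSG00000037321, chr17:34187553-34197225, plus strand), Psmb8 (ENSMUSG00000024338, chr17:34197721-34201454, plus strand) and Tap2 (ENSMUSG00000024339, chr17:34203527-34216321, plus strand) form a cluster in which neighbours lie at most 2.1 kb apart. B2m (ENSMUSG00000060802, chr2:122147686-122153083, plus strand) stands alone on chromosome 2, and Psmb10 (ENSMUSG00000031897, chr8:105935735-105938444, minus strand) and Nlrc5 (ENSMUSG00000074151, chr8:94434356-94527272, plus strand) are both on chromosome 8. Annotated exons of Tap1 and Psmb9 share 212 bases on opposite strands, and those of Tapbp share 149 bases with Zbtb22 on the same strand and 904 with the antisense gene Gm19412. Whether the counting used strand is not given in the sources used here, and reads falling on more than 1 gene were left out of the counts.

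The promoters of the heavy chains and of B2m are shown because they share letters bound by CREB/ATF and NF-Y, which help to recruit NLRC5. Letters bound by RFX were not searched. RefSeq promoter windows on GRCm38.p6 (250 bases before to 50 bases after a start) were matched for 8 of the 10 genes, in 9 windows. Capitals mark, on either strand, GGGGATTCCCC, GAANNGAAA or GAAANNGAAA (letters bound by NF-kappaB and by interferon regulatory factors), TGACG (CREB/ATF) and CCAAT (NF-Y), which reads ATTGG on the other strand. The H2-K1 stretch is chr17:34000351-34000466 on the minus strand, the B2m stretch is chr2:122147540-122147646 on the plus strand, and the H2-D1 stretch, chr17:35262993-35263022 on the plus strand, is cut to 30 bases because an annotated transcript starts further upstream.
H2-K1: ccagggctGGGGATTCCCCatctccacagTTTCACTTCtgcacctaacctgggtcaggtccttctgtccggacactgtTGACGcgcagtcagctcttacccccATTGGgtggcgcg
H2-D1: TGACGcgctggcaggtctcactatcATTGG
B2m: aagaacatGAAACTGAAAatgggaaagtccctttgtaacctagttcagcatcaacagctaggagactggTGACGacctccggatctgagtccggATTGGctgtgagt

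In all 3 genes TGACG was followed, after 20 bases, by ATTGG. That spacing was found in 31 of 32851 promoter windows (0.0944%), and in none of the windows of the other 5 genes that were matched. GGGGATTCCCC was found in H2-K1 and H2-D1 and in 0.0304% of all windows. From its first base to the last base of ATTGG, H2-K1 and H2-D1 had the same letter at 89 of 100 positions. The other motifs were common: GAANNGAAA was in 7.52% of windows, GAAANNGAAA in 3.44%, TGACG in 20.8% and CCAAT in 37.4%. Of the other letters searched, TATAAA (13.6% of windows) was found in H2-K1, H2-D1, B2m and Psmb8, and TTCNNNGAA (8.3%) in Psmb8. GGGGATTCCCC holds none of the other motifs, while TGACG and the reverse of CCAAT are counted again within the spaced pair. These matches are descriptions of the letters in these windows.

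The libraries held between 29318041 and 46517005 counts on genes, and 3 counts corresponded to between 0.0645 and 0.102 CPM (the count of a gene relative to its library's total after TMM scaling). Mitochondrial genes took between 5.035% and 12.08% of the counts, with the 3 highest shares in PTEC DN RAR mice. Itgam, which codes for CD11B, was at 1737, 1959 and 1995 CPM in controls and at 1366, 1303 and 980 CPM in PTEC DN RAR mice, and was lower in the latter (log2 fold change -0.64, SE 0.14, edgeR adjusted p = 0.00818). Ptprc (CD45) differed by -0.11 (adjusted p = 0.534) and Adgre1 (F4/80) by 0.09 (adjusted p = 0.626). The transgene has no entry of its own in the table, so the genotype label was not checked by it. The mouse gene Rara differed by -0.33 (edgeR adjusted p = 0.0628), which was not taken as a measure of the transgene.

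None of the 10 class I and immunoproteasome genes differed between PTEC DN RAR mice and controls past the threshold. All 10 passed the filter on low counts, and 0 were called lower and 0 called higher, with the threshold at an adjusted p of 0.05, where 17.1% of the 15440 genes tested were called lower, 23.6% higher and 40.6% either way (edgeR quasi-likelihood test, Benjamini-Hochberg over all genes). None of the 10 had an unadjusted p under 0.05 in this edgeR fit or in limma-voom. In DESeq2, 2 had one, and so did 2 in edgeR with RLE size factors in place of TMM. None passed after adjustment in either. Their log2 fold changes ran from -0.24 to 0.14 with a median of -0.09, beside a median of 0.04 over all genes, and 7 of the 10 were negative. Over the 10 genes, the 95% intervals of the difference reached from 0.713-fold to 1.33-fold with TMM scaling. With libraries scaled on pan-leukocyte genes in place of TMM, the largest differences were 0.32 for Tap2 (edgeR adjusted p = 0.0666), 0.29 for H2-K1 (adjusted p = 0.089) and 0.24 for H2-D1 (adjusted p = 0.156), beside a median of 0.21 over all genes. Within a genotype, the highest library exceeded the lowest by 1.2- to 1.37-fold in controls and by 1.02- to 1.61-fold in PTEC DN RAR mice, while the folds between genotypes ran from 0.847 to 1.1. In bulk RNA, fewer cells of a type and less RNA per cell cannot be told apart, here and in the results that follow.

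**Figure D1:**
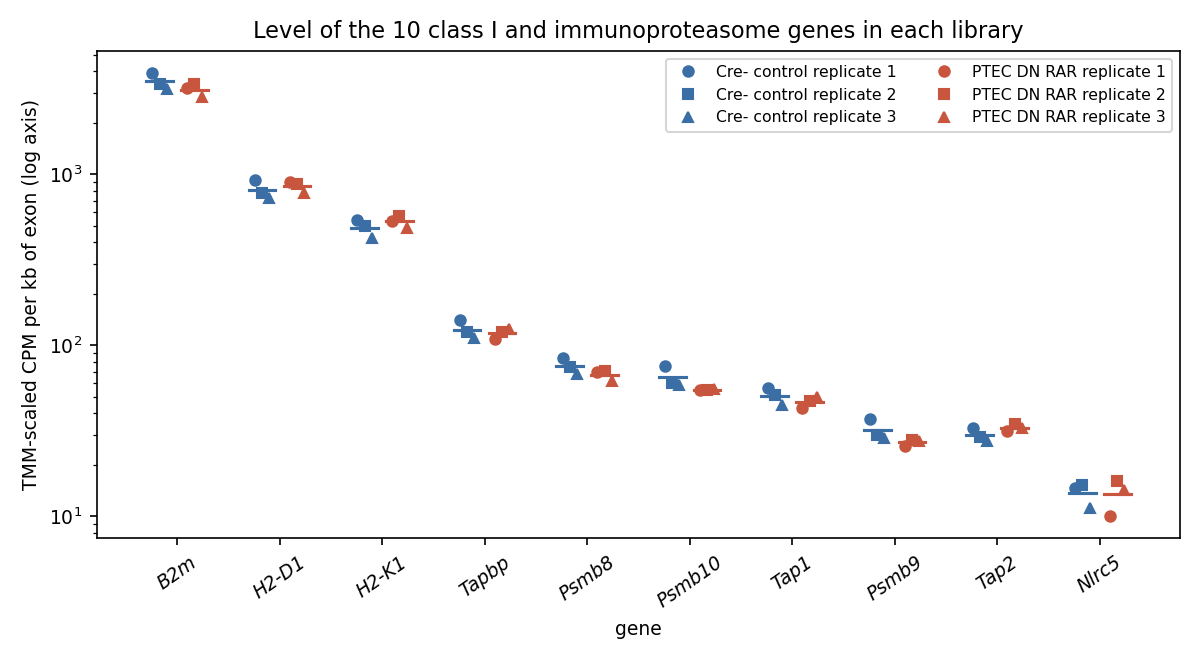
The plot shows the level of each of the 10 genes in each library, as TMM-scaled CPM per kilobase of exon on a log axis, with blue points for Cre- control and red for PTEC DN RAR mice (n = 3 each), marker shapes for replicates and a line at each mean. B2m is highest and Nlrc5 lowest, and the genotypes overlap for 8 of the 10 genes, Psmb9 and Psmb10 being the other two.

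The heavy chains bind peptide and are the chains that T cell receptors read. H2-K1 was at 1589, 1462 and 1237 CPM in control replicates 1, 2 and 3 and at 1574, 1681 and 1417 CPM in PTEC DN RAR replicates 1, 2 and 3. The lowest library was a control and the highest a PTEC DN RAR mouse, and the groups overlapped. The means were 1429 ± 179 and 1557 ± 133 CPM (SD, n = 3 each), and the log2 fold change was 0.12 (SE 0.13, 95% interval -0.16 to 0.41, edgeR adjusted p = 0.46). H2-D1 was at 2372, 2004 and 1879 CPM in controls and at 2331, 2262 and 1997 CPM in PTEC DN RAR mice. Here the highest and the lowest library were both controls. The log2 fold change was 0.08 (SE 0.13, 95% interval -0.21 to 0.36, adjusted p = 0.662). Both heavy chains turned slightly negative without control replicate 3, at -0.02 for H2-K1 and -0.04 for H2-D1. H2-K1 and H2-D1 are closely similar to each other and to the H2-Q genes, and reads that aligned to more than 1 place were not counted, so their levels are uncertain.

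B2m, the light chain shared by nearly all class I molecules, was the most abundant of the 10, at 3364, 2912 and 2716 CPM in controls and 2737, 2914 and 2418 CPM in PTEC DN RAR mice. Control replicate 1 was highest and PTEC DN RAR replicate 3 lowest, with the remaining libraries interleaved. Its log2 fold change was -0.16 (SE 0.13, 95% interval -0.45 to 0.14, edgeR adjusted p = 0.362).

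Tap1 and Tap2 code for the 2 chains of the peptide transporter. Tap1 was at 307, 280 and 243 CPM in controls and at 235, 258 and 274 CPM in PTEC DN RAR mice, and differed by -0.11 (SE 0.11, 95% interval -0.36 to 0.14, edgeR adjusted p = 0.441). Tap2 was at 124, 110 and 103 CPM in controls and at 119, 130 and 123 CPM in PTEC DN RAR mice, and differed by 0.14 (SE 0.09, 95% interval -0.07 to 0.35, adjusted p = 0.246). The estimates for the 2 chains thus had opposite signs, and neither was called. Control replicate 1 was the highest of all libraries for Tap1 and PTEC DN RAR replicate 2 for Tap2. Tapbp (tapasin), which bridges the transporter and the empty class I molecule, was at 507, 432 and 400 CPM in controls and at 390, 434 and 453 CPM in PTEC DN RAR mice. The groups overlapped, and the difference was -0.07 (SE 0.11, 95% interval -0.33 to 0.19, edgeR adjusted p = 0.656).

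The immunosubunits cut after residues that suit the anchor positions of class I peptides. Psmb8 (LMP7) was at 284, 252 and 229 CPM in controls and at 235, 237 and 209 CPM in PTEC DN RAR mice, a log2 fold change of -0.17 (SE 0.10, 95% interval -0.40 to 0.07, edgeR adjusted p = 0.234). The groups overlapped by control replicate 3. Psmb9 (LMP2) was at 135, 109 and 105 CPM in controls and at 94.1, 102 and 102 CPM in PTEC DN RAR mice. Every PTEC DN RAR library lay below every control, but the nearest values differed by little, and the log2 fold change of -0.23 was not called (SE 0.11, 95% interval -0.48 to 0.02, edgeR adjusted p = 0.126). Psmb10 (MECL-1) was at 129, 102 and 99.7 CPM in controls and at 93.1, 93.2 and 94.5 CPM in PTEC DN RAR mice. Its groups did not overlap either, and the log2 fold change of -0.24 was not called (SE 0.11, 95% interval -0.49 to 0.01, adjusted p = 0.11). Without control replicate 1, the highest library for both genes, the difference was -0.11 for each. Without control replicate 3 it was -0.35 for each, still not called (edgeR adjusted p = 0.0697 for Psmb9 and 0.0631 for Psmb10). These 2 were the only ones of the 10 whose genotypes did not overlap, where 53.4% of all genes tested did not overlap.

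Nlrc5, the transactivator of class I genes, was at 125, 130 and 95.1 CPM in controls and at 85.2, 137 and 120 CPM in PTEC DN RAR mice. The highest and the lowest library were both PTEC DN RAR mice. The difference was -0.03 on the log2 scale (SE 0.18, 95% interval -0.44 to 0.38, edgeR adjusted p = 0.908), and the estimate changed sign when control replicate 1 (0.02), control replicate 2 (0.01) or PTEC DN RAR replicate 1 (0.14) was left out.

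**Figure D2:**
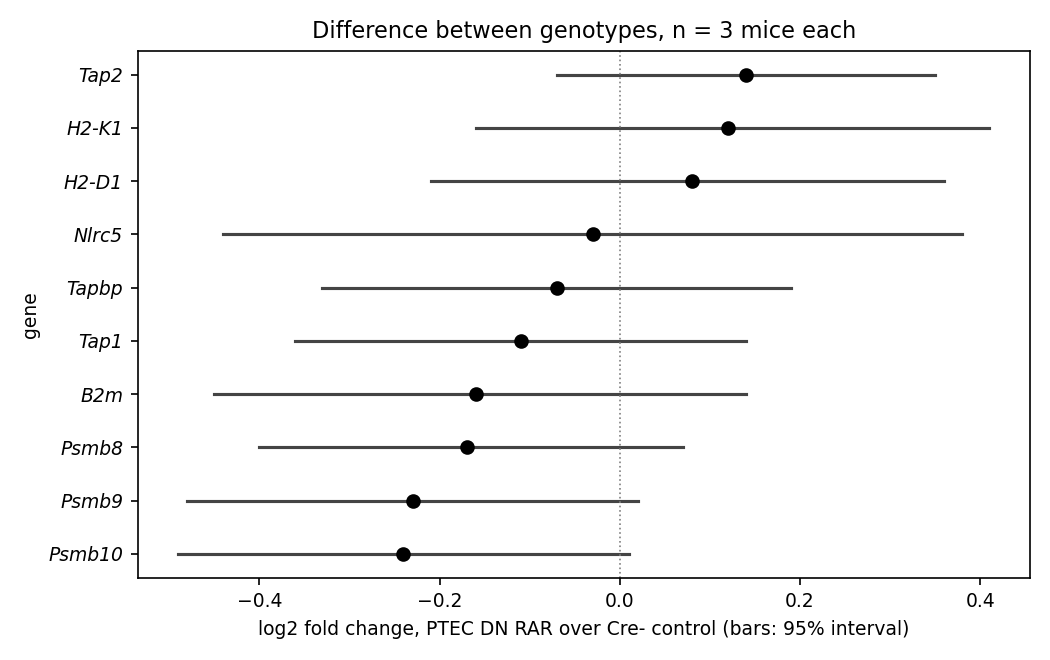
The plot gives the log2 fold change of PTEC DN RAR over Cre- control for each of the 10 genes, with bars for the 95% interval of the edgeR fit (n = 3 mice each) and a dotted line at no change. Points run from -0.24 for Psmb10 to 0.14 for Tap2, and every bar crosses the line.

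The libraries tended to be high or low for many of the 10 genes together. Among controls, replicate 1 was highest for 9 of the 10 genes and replicate 3 lowest for 10 of 10. Among PTEC DN RAR mice, replicate 2 was highest for 6 and replicate 1 lowest for 6. The mean log2 CPM of the 10 genes was 8.70, 8.51 and 8.36 in controls and reached 8.40, 8.54 and 8.44 in PTEC DN RAR mice, so the range of the controls took in all 3 values of the other genotype.

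Per kilobase of exon, which allows levels to be set against each other, B2m was highest at 3485 ± 386 CPM per kb in controls (SD, n = 3 in each genotype) and 3128 ± 292 in PTEC DN RAR mice. The heavy chains followed at 808 ± 99.5 and 852 ± 68.5 CPM per kb for H2-D1 and at 487 ± 60.8 and 530 ± 45.2 for H2-K1. By mean CPM, B2m ranked 27, H2-D1 38 and H2-K1 53 among the 15440 genes. Tapbp was at 123 and 117 CPM per kb, Psmb8 at 75.4 and 67.2, and Psmb10 at 64.8 and 54.9 in controls and PTEC DN RAR mice. Tap1 was at 50.5 and 46.8 CPM per kb, Psmb9 at 31.7 and 27.1, Tap2 at 29.7 and 32.8, and Nlrc5 at 13.7 and 13.4. The levels of neighbours in this order did not overlap between genes across the controls, except for Psmb8 with Psmb10 and for Psmb9 with Tap2. The last pair exchanged places in PTEC DN RAR mice. Over H2-K1 and H2-D1 together the level was 1295 ± 157 CPM per kb in controls and 1382 ± 109 in PTEC DN RAR mice. Exon lengths are those of all annotated exons of a gene merged, which may be longer than the transcripts expressed.

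The standard subunits Psmb5, Psmb6 and Psmb7 are the ones that Psmb8, Psmb9 and Psmb10 replace. Psmb5 was at 20.3, 14 and 15.9 CPM in controls and at 8.53, 8.98 and 16.3 CPM in PTEC DN RAR mice, with replicate 3 of the latter apart from the other two (log2 fold change -0.57, SE 0.26, edgeR adjusted p = 0.109). Psmb6 differed by -0.27 (SE 0.14, adjusted p = 0.157). Psmb7 fell, from 100, 105 and 94.5 CPM to 77, 68.6 and 74.6 CPM (log2 fold change -0.44, SE 0.08, edgeR adjusted p = 0.00417). A ratio within a library needs no scaling between libraries, and the log2 ratio of Psmb8 to Psmb5 counts was 3.81, 4.18 and 3.85 in controls and stood at 4.79, 4.72 and 3.68 in PTEC DN RAR mice. The groups overlapped by PTEC DN RAR replicate 3, and the difference was 0.45 (SE 0.38, exact two-sided permutation p = 0.4, adjusted over 3 pairs 0.6). Without that replicate it was 0.81 (exact permutation p = 0.1), and without replicate 1 it was 0.26. The log2 ratio of Psmb9 to Psmb6 was 0.05, 0.28 and 0.09 in controls and stood at -0.04, 0.29 and 0.27 in PTEC DN RAR mice, a difference of 0.03 (SE 0.13, exact permutation p = 0.9). The log2 ratio of Psmb10 to Psmb7 was 0.37, -0.04 and 0.08 in controls and stood at 0.27, 0.44 and 0.34 in PTEC DN RAR mice, a difference of 0.22 (SE 0.13, exact permutation p = 0.3, adjusted 0.6). The smallest p that 3 mice against 3 allow is 0.1. As a share of each pair per kilobase, the immunosubunit was 80.3% ± 2.16 in controls and 84.3% ± 6.04 in PTEC DN RAR mice for Psmb8, 36.1% ± 1.92 and 36.6% ± 2.93 for Psmb9, and 68.8% ± 3.09 and 71.9% ± 1.18 for Psmb10 (SD, n = 3 each). In controls the mean of Psmb5 was 16.7 CPM, against 106 CPM for Psmb6 and 99.9 CPM for Psmb7. Reads that aligned to more than 1 place were not counted, and their effect on the shares was not tested.

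**Figure D3:**
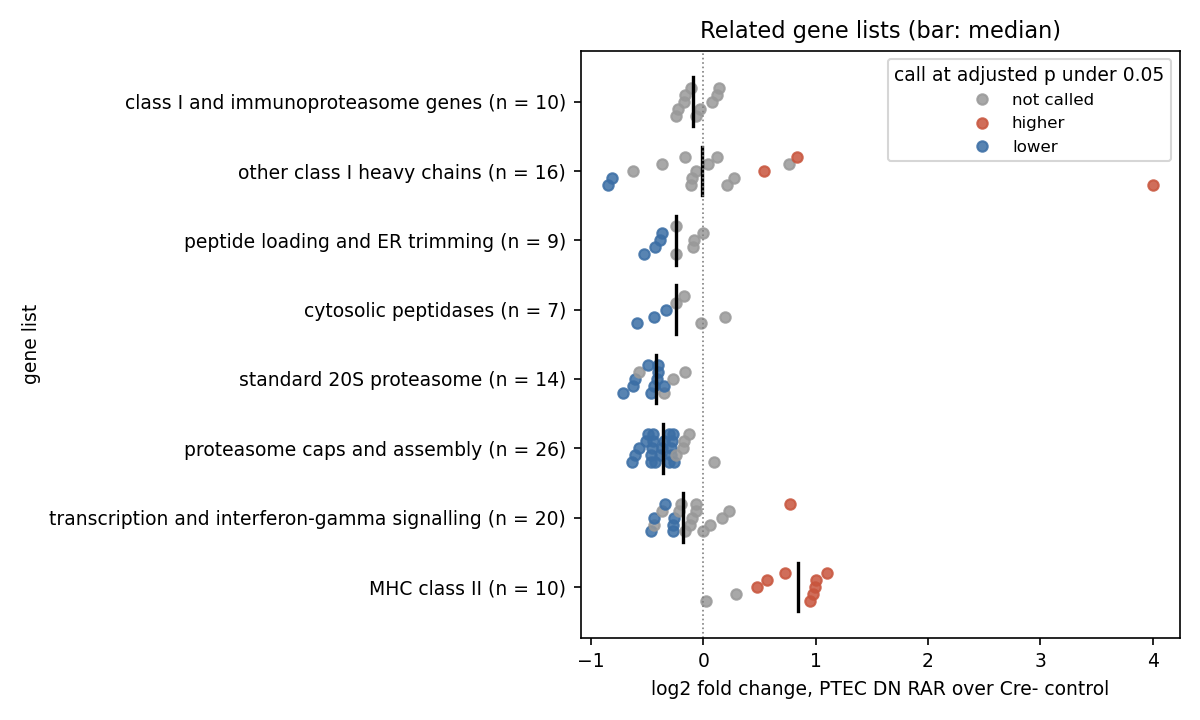
The plot gives the log2 fold change of PTEC DN RAR over Cre- control for each gene tested, 1 point a gene, for the 10 class I and immunoproteasome genes and 7 related lists, coloured by the call at an adjusted p under 0.05, with a black bar at each list's median. The 10 genes cluster around -0.09 in grey, the standard 20S proteasome centres on -0.43 with 10 of 14 genes lower, and MHC class II centres on 0.84 with 8 of 10 genes higher.

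Other parts of the proteasome held many genes called lower. Of the 14 genes of the standard 20S particle, 10 fell and 0 rose, with a median log2 fold change of -0.43. The largest falls were in the ring subunits Psma5 (-0.72, edgeR adjusted p = 0.00292), Psma4 (-0.63, adjusted p = 0.000791) and Psma1 (-0.61, adjusted p = 0.000872). Of 26 genes of caps and assembly factors, 21 fell and 0 rose, with a median of -0.36. Among them were the lid subunits Psmd12 (-0.64) and Psmd14 (-0.61), the latter a deubiquitinase, and the activator Psme4 (-0.57). Psme1 and Psme2, the interferon-inducible PA28 activator that caps immunoproteasomes, both fell. Psme1 was at 272, 251 and 227 CPM in controls and at 209, 208 and 202 CPM in PTEC DN RAR mice (log2 fold change -0.28, SE 0.09, edgeR adjusted p = 0.0367). Psme2 was at 63.6, 59.7 and 52.1 CPM in controls and at 42.7, 43 and 42.3 CPM in PTEC DN RAR mice (-0.45, SE 0.09, adjusted p = 0.00565). For both, every PTEC DN RAR library lay below every control. These counts depended on the scaling: with pan-leukocyte scaling, 3 of 14 and 5 of 26 genes were lower, where the share of all genes called lower was 5.45% in place of 17.1%, and without PTEC DN RAR replicate 2 the second count was 12, where 12% of all genes were lower.

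Of 9 genes for peptide loading and trimming in the endoplasmic reticulum, 4 fell and 0 rose (median -0.24), where 17.1% of all genes were called lower and 23.6% higher. Pdia3 (ERp57), which sits in the loading complex, was at 967, 1113 and 1095 CPM in controls and at 713, 772 and 707 CPM in PTEC DN RAR mice (log2 fold change -0.53, SE 0.10, edgeR adjusted p = 0.00391). The groups were well apart. The chaperones Canx (-0.43, adjusted p = 0.011) and Calr (-0.37, adjusted p = 0.0218) and the trimming peptidase Erap1 (-0.39, adjusted p = 0.0114) were the other genes called. Calnexin, calreticulin and ERp57 also fold many glycoproteins other than class I. Tapbpl, a tapasin relative that edits class I peptides, differed by -0.00 (95% interval -0.21 to 0.21). Of 7 cytosolic peptidases tested, which shorten or destroy proteasome products, 3 fell and 0 rose (median -0.24, the same shares of all genes applying): Tpp2 by 0.59, Blmh by 0.44 and Ide by 0.33 on the log2 scale. With pan-leukocyte scaling, 1 gene of each of these lists was lower and 1 of the peptidases higher, where 5.45% of all genes were lower and 28.4% higher, and DESeq2 called 5 peptidases and 21.2% of all genes lower.

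Among 21 other class I heavy chain genes, 16 were tested, 2 fell and 3 rose, with a median of -0.02. Neither count is above the share of all genes called, 17.1% lower and 23.6% higher, and the genes named next are described singly. H2-Q6 was at 22.4, 30.7 and 17.7 CPM in controls and at 38.9, 52 and 35.1 CPM in PTEC DN RAR mice (log2 fold change 0.83, SE 0.21, edgeR adjusted p = 0.0141). H2-Q7, which like H2-Q6 belongs to the nonclassical Qa-2 group, was at 23.6, 21.4 and 15.8 CPM in controls and at 28.4, 35.4 and 25 CPM in PTEC DN RAR mice (0.54, SE 0.18, adjusted p = 0.036). All PTEC DN RAR libraries were above all controls for both, but these paralogs share sequence with each other and with H2-K1 and H2-D1. H2-M2, a nonclassical heavy chain, had the largest change of the list (95% interval of the log2 fold change 2.56 to 5.44, SE 0.63, edgeR adjusted p = 0.00194). Its levels were low, at 0.743, 0.872 and 0.348 CPM in controls and at 9.82, 18.5 and 3.33 CPM in PTEC DN RAR mice. Cd1d1, which presents lipids to NKT cells, fell from 10.5, 7.65 and 10.6 CPM to 5.47, 6.29 and 4.68 CPM (-0.81, SE 0.18, edgeR adjusted p = 0.00871). H2-Q10, a secreted heavy chain, was called lower (-0.85, adjusted p = 0.0331) although PTEC DN RAR replicate 1, at 4.44 CPM, was above control replicate 1, at 4.25 CPM. The count of genes lower was 1 with pan-leukocyte scaling (5.45% of all genes lower) and without control replicate 2 (14.3%), control replicate 3 (11.7%) or PTEC DN RAR replicate 2 (12%), and the count higher was 1 without control replicate 3 (15.2% of all genes higher).

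Among 20 genes tested for the factors that drive class I transcription and for interferon gamma signalling, 6 fell and 1 rose (median -0.18), beside 17.1% of all genes called lower and 23.6% called higher. Irf1, an interferon-induced factor that binds class I promoters, differed by -0.20 (edgeR adjusted p = 0.159), and the interferon gamma receptor genes Ifngr1 and Ifngr2 by -0.10 (adjusted p = 0.404) and -0.22 (adjusted p = 0.0845). Ifng itself had at most 2 counts in a library and was not tested. Of the factors that bind with NLRC5, the RFX subunits Rfx5, Rfxap and Rfxank differed by 0.17 (adjusted p = 0.156), -0.12 and 0.06, and the NF-Y subunits Nfyb and Nfyc by -0.16 and 0.23, none of them called. For Rfx5 and Nfyc every PTEC DN RAR library was above every control, and 53.4% of all genes did not overlap between genotypes. The remaining NF-Y subunit Nfya (-0.34, edgeR adjusted p = 0.00842) fell, as did Creb1 (-0.47, adjusted p = 0.0217) and Atf1 (-0.44, adjusted p = 0.0084). The other genes of the list called lower were Irf2 (-0.26, edgeR adjusted p = 0.036), Jak1 (-0.27, adjusted p = 0.0405) and Jak2 (-0.27, adjusted p = 0.0424). The single gene that rose was Ciita, the class II counterpart of Nlrc5, at 184, 228 and 181 CPM in controls and at 358, 361 and 290 CPM in PTEC DN RAR mice (0.77, SE 0.13, edgeR adjusted p = 0.0023). The count of genes lower was 0 with pan-leukocyte scaling (5.45% of all genes lower), 3 with a minimum of 10 counts in every library (17.3%) or without control replicate 2 (14.3%), and 2 without PTEC DN RAR replicate 1 (12.6%).

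MHC class II, which shares promoter factors with class I, is set beside it here. Of its 10 genes 8 rose and 0 fell, with a median of 0.84, where 23.6% of all genes tested were called higher. H2-Eb1, a class II beta chain, was at 4058, 4269 and 3101 CPM in controls and at 8490, 9927 and 6056 CPM in PTEC DN RAR mice (log2 fold change 1.10, SE 0.21, edgeR adjusted p = 0.00399). Cd74, the invariant chain that guards the class II groove, rose by 1.00 (SE 0.20, adjusted p = 0.00539) and H2-Eb2 by 0.99 (SE 0.28, adjusted p = 0.0221). Without control replicate 3, 4 of the 10 genes rose, beside 15.2% of all genes. Over the class II alpha and beta chains together the level was 4422 ± 701 CPM per kb in controls (SD, n = 3 in each genotype) and 9013 ± 2031 in PTEC DN RAR mice.

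To compare the systems without scaling between libraries, 5 further ratios were formed after the values had been seen. The log2 ratio of H2-K1 to H2-Ab1, a class II beta chain, was -1.23, -1.23 and -1.15 in controls and stood at -2.11, -2.20 and -1.83 in PTEC DN RAR mice. All 3 of the latter were below all controls, and the difference was -0.84 (SE 0.12). The log2 ratio of Nlrc5 to Ciita was -0.56, -0.81 and -0.93 in controls and stood at -2.07, -1.40 and -1.27 in PTEC DN RAR mice, again without overlap, a difference of -0.82 (SE 0.27). Within class I, the log2 ratio of H2-K1 to B2m was -1.08, -0.99 and -1.14 in controls and stood at -0.80, -0.79 and -0.77 in PTEC DN RAR mice, a difference of 0.28 (SE 0.04). The log2 ratio of H2-D1 to B2m was -0.50, -0.54 and -0.53 in controls and stood at -0.23, -0.37 and -0.28 in PTEC DN RAR mice, a difference of 0.23 (SE 0.04). Both heavy chains thus stood higher against B2m in each PTEC DN RAR library than in any control. Each of these 4 ratios had an exact two-sided permutation p of 0.1, the smallest possible, and 0.125 after adjustment over the 5 ratios. The ratio of H2-K1 to H2-D1 differed by 0.05 (SE 0.06, exact permutation p = 0.5). Since the ratios were picked from these values, they describe the libraries and test nothing independent.

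**Figure D4:**
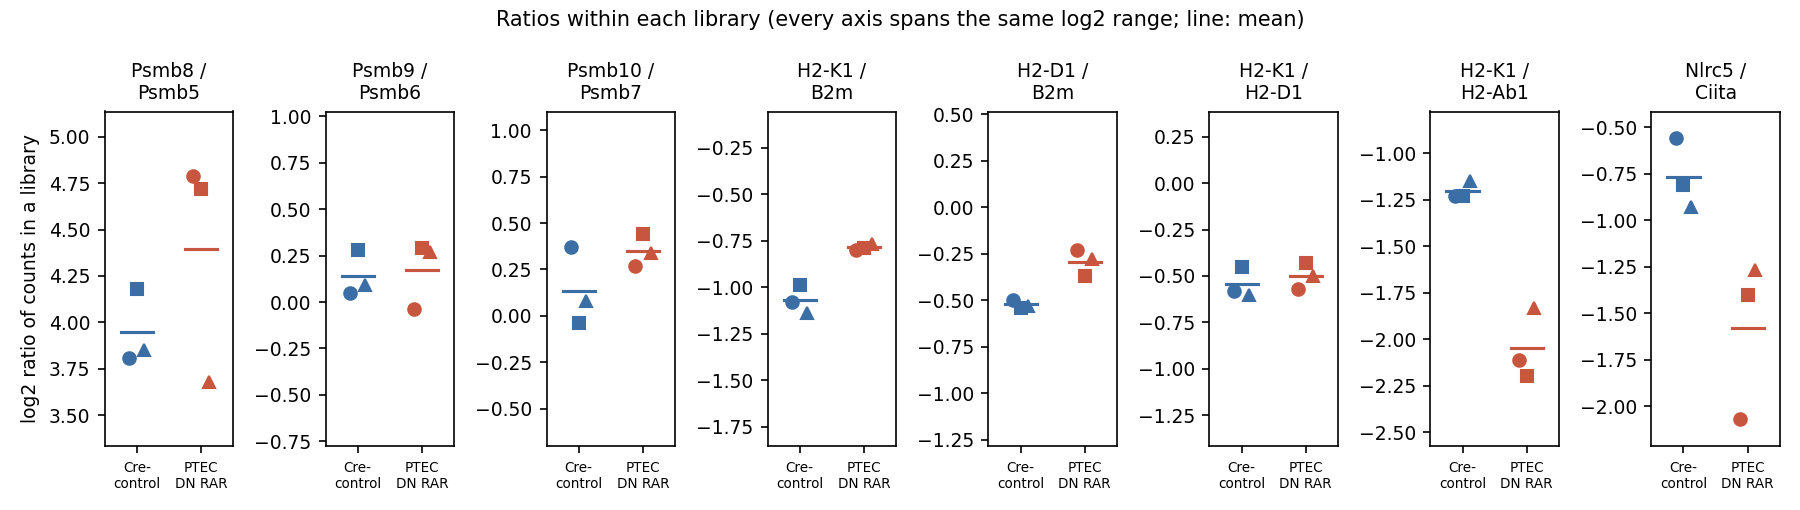
Each panel plots a log2 ratio of the counts of a gene pair within a library, for Cre- control (blue) and PTEC DN RAR (red) mice (n = 3 each), with marker shapes for replicates, a line at the mean and the same log2 span on each axis. The first 3 panels, immunosubunit over standard subunit, overlap between genotypes, while the heavy chains over B2m are higher and H2-K1 over H2-Ab1 and Nlrc5 over Ciita lower in all PTEC DN RAR libraries.

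Class I genes are carried by nearly all cells of the kidney, and markers of several other cell types moved with genotype. Beside the counts that follow, 17.1% of all genes tested were called lower and 23.6% higher, and 53.4% did not overlap between genotypes. The dendritic, T and B cell counts rest on few genes. Of 16 proximal tubule markers 16 were higher in PTEC DN RAR mice, and their summed level was 858 to 1142 CPM in controls and 2835 to 4492 CPM in PTEC DN RAR mice. The 5 markers of the thick ascending limb were all higher (1027 to 1447 against 3574 to 6938 CPM), as were the 5 of the distal convoluted tubule (925 to 1189 against 1871 to 2235 CPM) and the 8 of endothelium (79 to 115 against 228 to 277 CPM). Of 5 podocyte markers 4 were higher (51.1 to 82.2 against 146 to 178 CPM). In collecting duct (65.2 to 167 against 162 to 314 CPM) and fibroblasts (62 to 74.7 against 62.3 to 171 CPM) the summed levels overlapped, and 3 of 6 and 5 of 6 markers were higher. Among leukocytes, 7 of 8 infiltrating monocyte markers were lower (3161 to 3634 against 1492 to 1572 CPM), 5 of 9 tested neutrophil markers were lower (467 to 842 against 296 to 420 CPM), and 8 of 25 tested pan-leukocyte genes were lower (15775 to 17112 against 12867 to 14953 CPM). Resident macrophage markers overlapped (13296 to 14585 against 12661 to 16300 CPM, 1 lower and 1 higher), as did those of dendritic cells (102 to 150 against 121 to 157 CPM, 1 lower and 3 higher of 8), NK cells (13 to 24.8 against 14.3 to 16.6 CPM, 0 called of 5) and B cells (401 to 507 against 502 to 760 CPM, 2 higher of 5). T cell markers were at 43.2 to 71.6 CPM in controls and 86.3 to 109 CPM in PTEC DN RAR mice (2 higher of 5). No marker was at 0 in all libraries. The part of these shifts in the levels of the 10 genes, of the proteasome lists and of class II was not tested. With scaling on pan-leukocyte genes, the median of all genes tested moved from 0.04 to 0.21, and all genes called were 841 lower and 4386 higher in place of 2636 and 3640. None of the 10 class I and immunoproteasome genes was called with that scaling either. It moves all genes alike, so B2m, Tap1, Tapbp, Psmb8 and Nlrc5 crossed to between 0.00 and 0.15 and remained below the median of all genes.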

How the data were processed

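RNA of CD11B+ kidney cells from 6 mice was sequenced as 1 library per mouse after polyA selection. The authors deposited raw counts of reads per Ensembl gene, without normalization. The submitters' processing notes name STAR 2.5.0a, HTSeq 0.6.1 and the build GRCm38, and the strand setting is not given in the sources used here. The deposited counts leave out alignments that were not unique (42.93% to 47.75% per library), that fell on several genes (0.457% to 0.527%) or on none (2.39% to 3.97%). Those summary lines were kept out of library sizes and tests. Of 46612 gene lines, 9 repeated an identifier and were collapsed. No column of another sample is in the table. No pair of libraries of the same genotype agreed within sampling noise.

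Mice were grouped by genotype as labelled. After filterByExpr and TMM scaling, genotypes were compared by the quasi-likelihood F test of edgeR 4.0.16 in R 4.3.3, without covariates and with Benjamini-Hochberg adjustment over 15440 genes (called: adjusted p under 0.05). Ratios of counts within a library were compared by two-sided exact permutation tests. Exon lengths came from GENCODE M21, and promoter windows from RefSeq on GRCm38.p6. The fits were tested on simulated data. Alternatives were DESeq2 1.42.0, limma 3.58.1 (voom), other scalings and filters, the replicate number as a block, and leaving out each mouse.

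The genes and lists were chosen with earlier results of these data known. All 10 class I and immunoproteasome genes are given, with Psmb5, Psmb6, Psmb7, Psme1, Psme2, Irf1, Rfx5 and Ciita. From each list, the text names the 3 genes called lower and the 3 called higher with the largest change and a mean of at least 1 CPM, and the 5 genes whose levels follow the mean of the 10 most closely. Calr, Tapbpl, Rfxap, Rfxank, Nfyb, Nfyc, Irf2, Jak1, Jak2, Ifngr1, Ifngr2, Ifng and H2-Ab1 were added after their values were seen. The list of 8 cytosolic peptidases holds 2 names of 1 gene, of which the table uses 1. A further gene that the rule names is not reported here.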

Additional observations from a re-analysis of the deposited data

How the results depend on the processing

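None of the 10 class I and immunoproteasome genes was called under any alternative run (DESeq2, limma-voom, RLE size factors, library size alone, pan-leukocyte scaling, no filter, at least 10 counts in every library, the replicate block, and leaving out each mouse), and between 0 and 3 had an unadjusted p under 0.05. With 0 calls, agreement on this count says nothing of stability. Pan-leukocyte scaling raised the median of all genes from 0.04 to 0.21 and the 10 genes with it, which by construction put B2m at 0.01, Tap1 at 0.07, Tapbp at 0.11, Psmb8 at 0.00 and Nlrc5 at 0.15, and moved H2-K1 to 0.29, H2-D1 to 0.24 and Tap2 to 0.32. On leaving out 1 mouse at a time, H2-K1 ran from -0.02 to 0.20, H2-D1 from -0.04 to 0.17, Tapbp from -0.19 to 0.03, Nlrc5 from -0.20 to 0.14, and the difference in the Psmb9 to Psmb6 log2 ratio from -0.02 to 0.14. The other 2 subunit ratios kept their sign (0.26 to 0.81 for Psmb8 to Psmb5 and 0.13 to 0.33 for Psmb10 to Psmb7). The remaining genes kept their sign but also moved: B2m (-0.27 to -0.07), Tap1 (-0.24 to -0.04), Tap2 (0.04 to 0.22) and Psmb8 (-0.28 to -0.09). Psmb9 and Psmb10 each ran from -0.35 to -0.11. The cause of the changes on leaving out mice was not tested.

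Of all genes, 2636 were called lower and 3640 higher, against 841 and 4386 with pan-leukocyte scaling and 1874 and 2433 without control replicate 3. The replicate number was not taken to pair the mice: deviations of libraries with the same number correlated at -0.015, 0.211 and 0.029. With the replicate block, 0 of the 10 genes were called lower and 0 higher. The Psmb8 to Psmb5, Psmb9 to Psmb6 and Psmb10 to Psmb7 differences of 0.45, 0.03 and 0.22 had exact permutation p of 0.5, 0.75 and 0.5. The 4 ratios without overlap had an exact permutation p of 0.25, the smallest that the block allows. The H2-K1 to H2-D1 ratio, which overlapped, had 0.25 as well, so this p does not set the 4 apart. The block moved the count of other heavy chains called lower from 2 to 1. With 3 mice a group, the 95% intervals of the 10 genes together spanned 0.713- to 1.33-fold with TMM scaling, and this span shifts with the scaling.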

Other observations

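Over the 6 libraries, the genes outside the 10 whose log2 CPM followed the mean of the 10 most closely were A530013C23Rik (Pearson r = 0.986), Gm44135 (0.976), Mllt11 (0.972), Xpa (0.966), a nucleotide excision repair gene, and Atp8b2 (0.964). These r values are a description, picked as the highest among all other genes tested, over libraries that share 2 genotypes. None of the 5 genes differed between genotypes past the threshold, with log2 fold changes from -0.20 to -0.03. A530013C23Rik and Gm44135 had means of at most 1.12 CPM.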
